A study of Mus musculus with 18 samples.

Results

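The subcortical maternal complex genes were followed across mouse oocytes with or without transgenes of Zfy1 and Zfy2, zinc finger genes of the Y chromosome. The members were the 8 genes Nlrp5, Ooep, Tle6, Khdc3, Padi6, Nlrp2, Nlrp4f and Zbed3, taken as every probe annotated to one of these symbols. This gave 10 of the 45281 probes on the array, 3 for Nlrp5 and 1 for each other gene. All 10 were detected (detection p under 0.05) on all 18 arrays, as were 13829 probes of the whole table, and the accession of each of the 10 matched RefSeq.

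The subcortical maternal complex is a protein assembly that the growing oocyte stores beneath its cortex and that is passed to the early embryo. Its mouse core is built from NLRP5 (MATER), OOEP (FLOPED), TLE6 and KHDC3 (FILIA), and the other members were found with it or with the fibrous cytoplasmic lattices that fill the oocyte. In mice, loss of many of these proteins from the mother stops or disturbs the first divisions of her embryos, which is why the genes are called maternal effect genes.

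Bead arrays measured RNA from fully grown germinal vesicle oocytes of MF1 outbred albino females aged 4 weeks, taken 45 to 48 hours after PMSG, a hormone that makes follicles grow. Each sample pooled about 100 oocytes, freed of cumulus cells, from 2 or more females, and each of 6 genotypes had 3 samples described as biological replicates. XX carried no transgene, Zfy2_nf a Zfy2 transgene without function, Zfy1_lo 1 copy of a Zfy1 transgene, Zfy1_hi multiple copies of it, and Zfy2 1 copy of a Zfy2 transgene. Zfy2_Eif2s3y carried the single Zfy2 copy with a multi-copy transgene of Eif2s3y, the Y-chromosomal translation factor gene, which was present in only a proportion of its cells, and the submitters called this group contaminated. The sources used here name no promoter for the transgenes.

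XX, Zfy2_nf, Zfy1_lo and Zfy2_Eif2s3y formed batch 1 on slides 1 and 2, and Zfy1_hi and Zfy2 formed batch 2 on slide 3, so that a change of either batch 2 group from XX cannot be told apart from a change of batch. Arrays detected 18140 to 20292 probes, with a median signal of 89.7 to 115 in batch 1 and 68.9 to 75.1 in batch 2, and replicates correlated across probes at r = 0.967 to 0.987. The Zfy2 probe was detected on 0 of 3 arrays of XX and of Zfy2_nf and on 3 of 3 arrays of every other group, the Zfy1 groups included. Its mean was highest in Zfy1_hi, at 7.02 ± 0.19 (log2 intensity, SD, n = 3), against 5.88 ± 0.30 in Zfy2, 5.91 ± 0.37 in Zfy2_Eif2s3y and 5.39 ± 0.23 in Zfy1_lo, so that the groups with functional Zfy2 are named by their labels and not by this probe. A Zfy1 probe was detected on 3 of 3 arrays of Zfy1_lo and Zfy1_hi and on at most 1 array of any other group, while a second Zfy1 probe was detected on every array. The Eif2s3y probe with a RefSeq accession was detected on all 3 Zfy2_Eif2s3y arrays and on 0 arrays elsewhere, whereas a second Eif2s3y probe was detected on 0 of 3 arrays there, 3 of 3 in Zfy1_hi and in Zfy2, 2 of 3 in Zfy2_nf and 0 in the other groups. All 12 oocyte markers on the array were detected on every array.

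Khdc3 and Ooep belong to 1 gene family and lie on the same chromosome, 9. The 250 bases before their transcription starts are shown because Khdc3 is the member called in a comparison within a batch and Ooep is the core member related to it (RefSeq, build GRCm38.p6, 5′ to 3′ on the gene's strand). Khdc3 is at chr9:73102148-73102397 on the plus strand and Ooep at chr9:78378589-78378838 on the minus strand. Capitals mark AGGCCT, the letters reported for the zinc fingers of human ZFX, the X-chromosomal homologue of ZFY, and CANNTG, the E-box, which the mouse oocyte factor FIGLA binds with its partner.
Khdc3: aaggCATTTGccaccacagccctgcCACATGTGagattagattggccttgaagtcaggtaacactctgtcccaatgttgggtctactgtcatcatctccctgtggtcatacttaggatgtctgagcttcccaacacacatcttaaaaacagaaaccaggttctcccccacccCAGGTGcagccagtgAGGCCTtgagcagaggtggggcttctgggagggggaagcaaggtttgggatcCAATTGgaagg
Ooep: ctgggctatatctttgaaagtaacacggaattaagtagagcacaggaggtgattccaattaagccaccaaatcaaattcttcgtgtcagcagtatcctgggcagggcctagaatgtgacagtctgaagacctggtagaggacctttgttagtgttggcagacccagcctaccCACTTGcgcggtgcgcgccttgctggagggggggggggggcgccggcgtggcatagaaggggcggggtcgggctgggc

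AGGCCT, which reads the same on both strands, stood in the Khdc3 window 63 bases before the start and in none of the other 11 windows that RefSeq gave for the 8 genes. Among 32851 windows of all 27025 genes in that table, 8.7% held it. CANNTG, which also matches itself on the other strand, stood in 11 of the 12 windows and in 66.2% of all windows, and the Nlrp2 window held none. The Khdc3 window had 5 such matches, of which CACATG and CATGTG overlap, and the Ooep window had 1, at 78 bases before its start. GC content ran from 38.4 to 67.2% in the 12 windows, around the median of 52.4% over all windows. These matches describe the letters in the windows, and binding was not measured.

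Khdc3 encodes FILIA, a core protein that protects mouse embryos from aneuploidy, and its group means spanned 1.06 log2 units, all of it within batch 1, the widest range of any member there. Values here are log2 intensities after background correction and quantile normalization, with an offset of 16. Khdc3 read 8.94, 9.24 and 9.63 in XX, 10.18, 9.19 and 10.32 in Zfy2_nf, and 9.97, 9.24 and 9.48 in Zfy1_lo. It read 10.37, 10.38 and 10.24 in Zfy2_Eif2s3y, 9.47, 9.43 and 9.18 in Zfy1_hi, and 10.21, 10.10 and 10.30 in Zfy2. The 6 arrays with a functional Zfy2 transgene were thus all high and close together. Of the 12 other arrays, 10 lay below the lowest of those 6, and 2, both of Zfy2_nf, lay within their range. The non-normalized signals ran the same way, with 616 to 800 in XX, 1295 to 1368 in Zfy2_Eif2s3y, 655 to 789 in Zfy1_hi and 1056 to 1443 in Zfy2.

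In order of their means, Khdc3 was at 9.27 ± 0.34 in XX, 9.36 ± 0.16 in Zfy1_hi, 9.56 ± 0.37 in Zfy1_lo, 9.90 ± 0.61 in Zfy2_nf, 10.21 ± 0.10 in Zfy2 and 10.33 ± 0.08 in Zfy2_Eif2s3y (SD, n = 3 each). The arrays of each pair of neighbours in this order overlapped. The Zfy2_nf arrays were split, with replicates 1 and 3 high and replicate 2 low. These 2 high arrays and the highest Zfy1_lo array lay in upper positions of their slides and the lower arrays of both groups in lower positions, while the XX arrays ran the other way. The Zfy2_Eif2s3y arrays did not follow position, with 10.37 in an upper and 10.38 and 10.24 in lower positions. All 3 Zfy2 arrays lay in upper positions of slide 3 and all 3 Zfy1_hi arrays in lower ones.

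**Figure D1:**
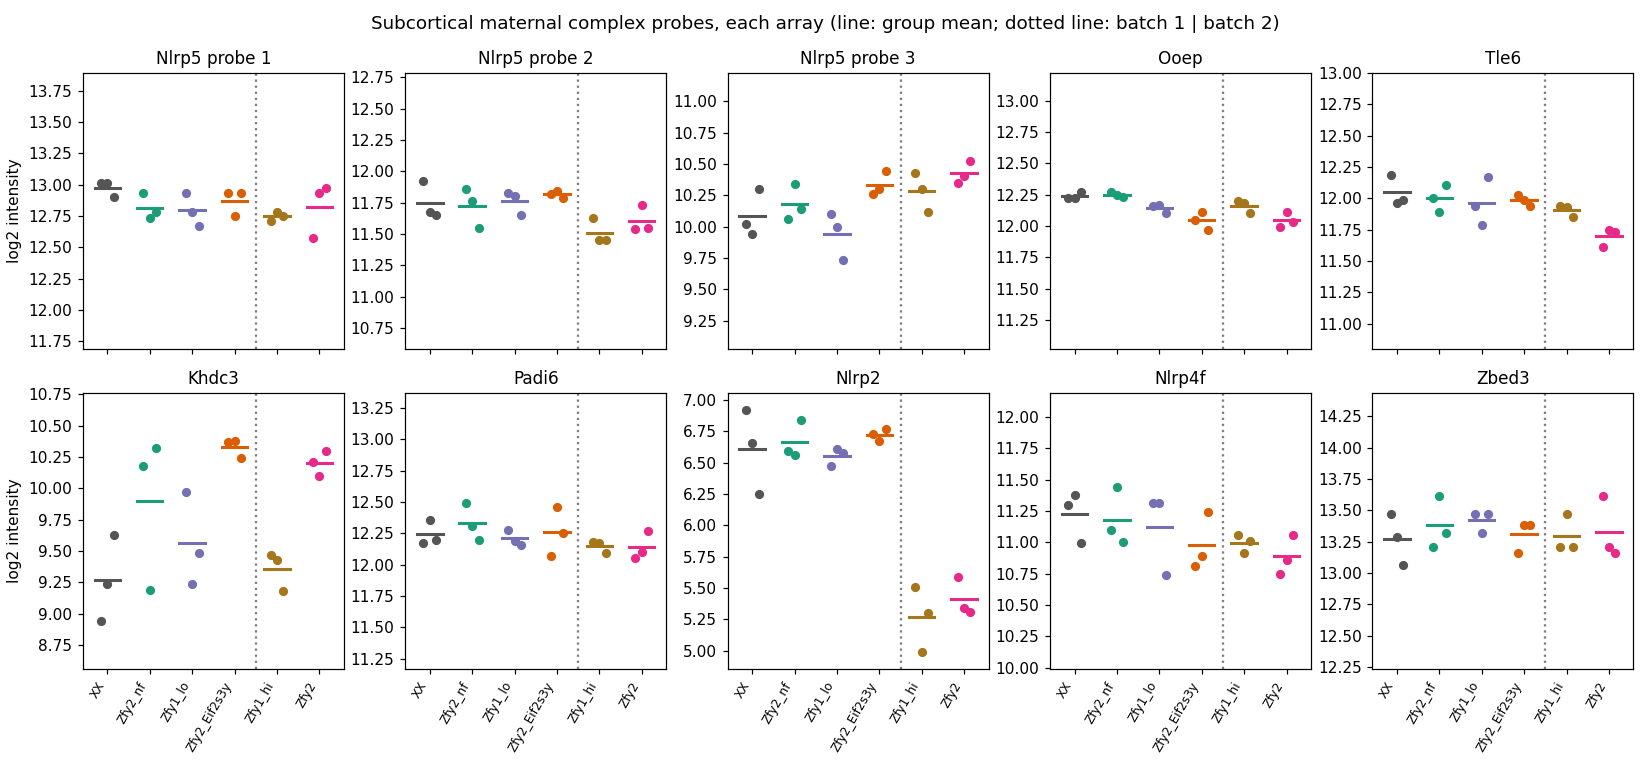
Log2 intensity (vertical axes, each spanning the same number of log2 units) of the 10 member probes on each of the 18 arrays, by group, with a line at each group mean and a dotted line between batch 1 and batch 2. Khdc3 is at 10.10 or higher on all arrays with functional Zfy2, and Nlrp2 is at 5.59 or lower on all batch 2 arrays and at 6.25 or higher on all batch 1 arrays.

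NLRP5 is the leucine-rich repeat protein that holds the core together. Its 3 probes ranged over the 18 arrays from 12.57 to 13.01, from 11.45 to 11.92 and from 9.73 to 10.52, and they are called probes 1, 2 and 3 in that order. The probes did not order the groups alike. Probe 1 was highest in XX, at 12.98 ± 0.07, and probe 3 was highest in Zfy2, at 10.42 ± 0.08, against 10.09 ± 0.19 in XX.

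OOEP is a small KH-domain-like protein of the core without which NLRP5 is not held at the cortex in mice. Ooep read 12.22, 12.22 and 12.27 in XX, 12.27, 12.25 and 12.23 in Zfy2_nf, and 12.16, 12.17 and 12.10 in Zfy1_lo. It read 12.05, 12.11 and 11.97 in Zfy2_Eif2s3y, 12.20, 12.18 and 12.10 in Zfy1_hi, and 11.99, 12.11 and 12.03 in Zfy2. The means of the 2 groups with functional Zfy2, both 12.04, were the lowest, and the spread within groups was small, with a pooled SD of 0.05.

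TLE6, a co-repressor family protein, joins the core and takes part in placing the spindle of the dividing zygote in mice. Tle6 read 12.19, 11.96 and 11.99 in XX, 12, 11.89 and 12.11 in Zfy2_nf, and 11.94, 11.79 and 12.17 in Zfy1_lo. It read 12.03, 11.99 and 11.94 in Zfy2_Eif2s3y, 11.94, 11.93 and 11.85 in Zfy1_hi, and 11.61, 11.75 and 11.73 in Zfy2. The Zfy2 arrays lay below every other array, but the Zfy2_Eif2s3y arrays lay among the controls. All other groups except Zfy1_hi were in batch 1, so most of the separation of the Zfy2 arrays runs across batches. The share of all probes that separate in this way was not counted. Against Zfy1_hi, within batch 2, the difference was -0.21 (limma adjusted p = 0.381), and the arrays of 12.8% of all probes lay below there.

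Of the members beyond the core, Nlrp2, a maternal effect gene of the same family as Nlrp5, differed by batch. Nlrp2 read 6.92, 6.66 and 6.25 in XX, 6.59, 6.56 and 6.84 in Zfy2_nf, 6.47, 6.61 and 6.58 in Zfy1_lo, and 6.73, 6.67 and 6.77 in Zfy2_Eif2s3y. It read 5.51, 4.99 and 5.30 in Zfy1_hi and 5.59, 5.34 and 5.31 in Zfy2. No batch 2 array reached the lowest batch 1 array. The share of all probes that separate by batch in this way was not counted. Against XX alone, the arrays of 15.6% of all probes lay below in Zfy1_hi and those of 19.3% in Zfy2. The non-normalized signal of the Nlrp2 probe was 1.44 to 2.11 times the array's own median in batch 1 and 1.11 to 1.36 times in batch 2. Its detection p stayed at or under 0.00107 except on Zfy1_hi replicate 2, where it was 0.0203, whereas the other 9 probes had a detection p of 0 on every array.

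Padi6, whose protein the cytoplasmic lattices require, ranged from 12.05 to 12.49 over the 18 arrays. Nlrp4f, a member found in the mouse complex that affects how organelles are spread in the oocyte, ranged from 10.74 to 11.44. Zbed3, which binds Axin in Wnt signalling and helps to keep the first divisions symmetric in mice, ranged from 13.06 to 13.61. All 3 genes had overlapping arrays between every group and XX. Quantile normalization gives equal ranks equal values, and Zbed3 took 8 distinct values on the 18 arrays, 13.21 on 4 of them, so its small differences are coarse. The range of its 6 group means, 0.15, was below its pooled SD of 0.18. Nlrp5 probe 1 also took repeated values, such as 12.93 on several arrays, so its small differences are coarse too.

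Differences between groups were tested with limma over all 23951 probes detected on at least 3 arrays, and a probe was called at a Benjamini-Hochberg adjusted p under 0.05 over all of them. Lower RNA per oocyte and fewer oocytes that express a gene cannot be told apart in pools. An exact permutation test of 3 arrays against 3 has a smallest p of 0.1, and limma passes it by pooling the spread of all groups and probes.

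Zfy2_nf against XX asks whether a transgene without a functional product altered the members, and 0 of the 8 genes were called, against 0.0292% of all probes. At an unadjusted p under 0.05, 1 member, Khdc3, passed, against 8.78% of all probes. Khdc3 was 0.62 higher on the log2 scale (SE 0.252, 95% interval 0.09 to 1.16), with a limma adjusted p of 0.485 and overlapping arrays. The difference was 0.97 without Zfy2_nf replicate 2 and 0.41 without Zfy2_nf replicate 3, at adjusted p of 0.0822 and 0.791. The arrays of 0 member probes stood apart from XX, against 5.34% of all probes lying above XX and 6.75% below. The other 9 probes differed by -0.16 to 0.11.

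Zfy1_lo against XX, the effect of a single Zfy1 copy, also called 0 members, against 0.00418% of all probes. None passed an unadjusted p under 0.05, which 7.26% of all probes did. Khdc3 was 0.29 higher (SE 0.252, 95% interval -0.24 to 0.82), with a limma adjusted p of 0.851. All Ooep arrays of Zfy1_lo lay below those of XX, as did 5.83% of all probes, but the difference was -0.09 and its limma adjusted p 0.883. The median difference of the member probes was -0.07, beside 0 over all probes.

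Zfy2_Eif2s3y against the mean of XX and Zfy2_nf sets 3 arrays with a functional Zfy2 transgene against 6 without, and 1 of the 8 genes was called. Those 3 arrays also carry the Eif2s3y transgene, so Zfy2 and Eif2s3y cannot be told apart here. In this comparison 9.14% of all probes were called, 4.19% as higher. The called member was Khdc3, which rose 1.68-fold, by 0.74 on the log2 scale (SE 0.218, 95% interval 0.28 to 1.21, limma adjusted p = 0.0417). The difference was 1.06 against XX alone and 0.43 against Zfy2_nf alone, where the limma adjusted p was 0.405. All 3 Zfy2_Eif2s3y arrays lay on slide 2 and 4 of the 6 control arrays on slide 1. With slide as a fixed block the difference was also 0.74 (SE 0.27) and its adjusted p was 0.149, and on the arrays of slide 2 alone it was 0.70, with an adjusted p of 0.0893. Leaving out any of 6 arrays took its adjusted p past the threshold, to 0.0748 without XX replicate 1, 0.0711 without XX replicate 2, 0.0506 without Zfy2_nf replicate 2, and 0.129, 0.133 and 0.0879 without Zfy2_Eif2s3y replicates 1, 2 and 3.

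Ooep was 0.20 lower in Zfy2_Eif2s3y (SE 0.0824, 95% interval -0.37 to -0.02) and did not pass, with a limma adjusted p of 0.153. All 3 of its arrays lay below all 6 control arrays, as did those of 6.99% of all probes. With an offset of 50 or with dim probes kept in the fit, Ooep passed, at adjusted p of 0.0388 and 0.0344. The other 8 probes differed by -0.22 to 0.20 and did not pass. Of 14 granulosa and cumulus markers on the array, 6 were detected on all 3 arrays of Zfy2_Eif2s3y, 7 in XX and 5 in Zfy2_nf. Their summed level ran from 10.47 to 11.77 in Zfy2_Eif2s3y, 10.49 to 10.58 in XX and 10.30 to 11.05 in Zfy2_nf (log2), and its part in the result was not tested. Cyp11a1, Kitl, Gja1 and Nr5a2 were detected on all 18 arrays, while Amh and Foxl2 were each detected on 2. Stroma and theca markers summed to 7.28 to 7.88 in Zfy2_Eif2s3y, 6.90 to 7.28 in XX and 7.11 to 7.48 in Zfy2_nf, and of the 8 on the array 1, 7 and 4 were detected on 0 arrays of these groups. Their part in the result was not tested either.

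**Figure D2:**
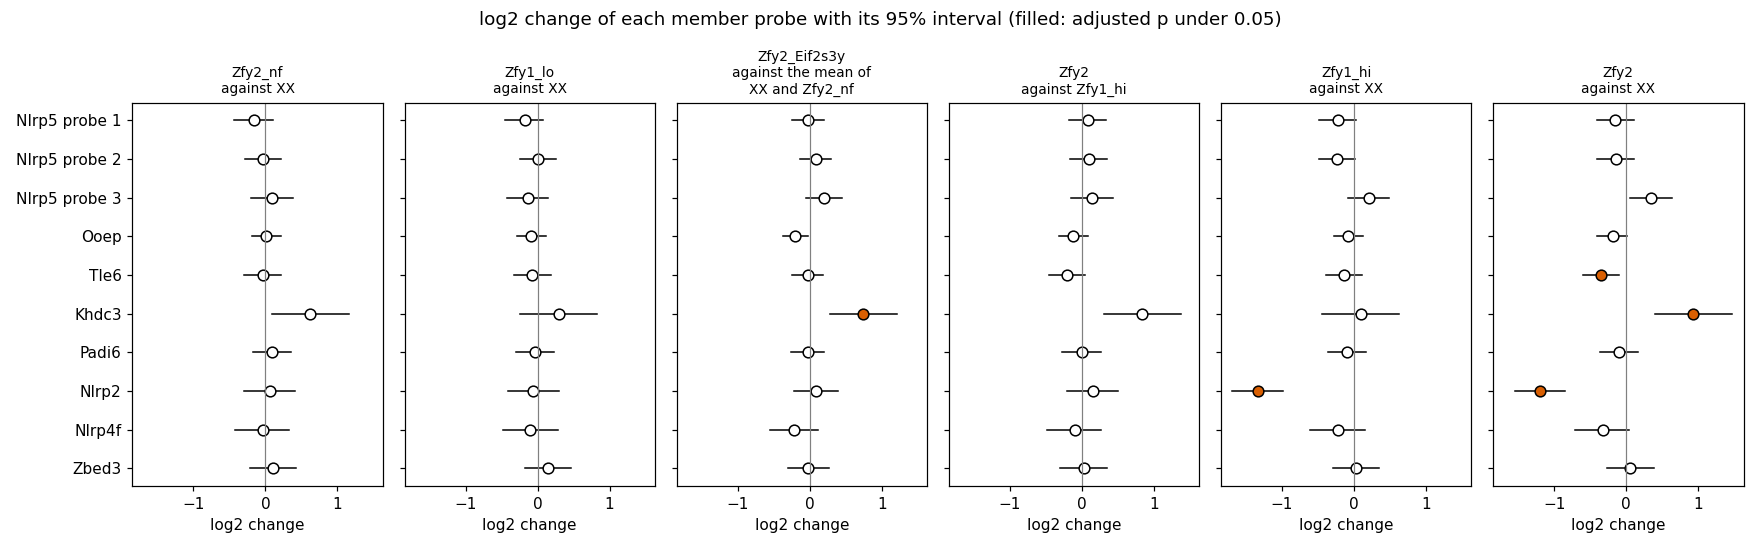
Log2 change (horizontal axes) of each member probe in 6 comparisons, as the limma estimate with its 95% interval, filled where the adjusted p over all probes was under 0.05. Khdc3 is the probe farthest to the right in all 4 comparisons within a batch, at 0.62, 0.29, 0.74 and 0.84, and Nlrp2 is far to the left only in the 2 comparisons across batches.

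Zfy2 against Zfy1_hi compared the 2 transgenes within batch 2, and 0 members were called, against 5.66% of all probes. At an unadjusted p under 0.05, 1 member passed, against 18.5% of all probes. That member was Khdc3, 1.80-fold higher in Zfy2, by 0.84 on the log2 scale (SE 0.252, 95% interval 0.31 to 1.38), with a limma adjusted p of 0.0614. Its Zfy2 arrays lay above its Zfy1_hi arrays, as did those of 12.9% of all probes. Tle6 was 0.21 lower in Zfy2 (SE 0.119, adjusted p = 0.381), and its arrays lay below, as did those of 12.8% of all probes. Khdc3 passed, at an adjusted p of 0.0201, when only these 2 groups entered the fit.

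With upper or lower slide position as a covariate, estimated on batch 1 and added after the data were seen, Khdc3 was 0.55 higher in Zfy2, with an adjusted p of 0.449. Granulosa and cumulus markers summed to 9.63 to 9.84 in Zfy2 and 10.03 to 10.24 in Zfy1_hi (log2), and stroma and theca markers to 6.68 to 6.94 and 6.30 to 6.43. The part of these differences in the result was not tested.

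The 2 comparisons of functional Zfy2 within a batch share no array. In the first, Zfy2 cannot be told apart from the Eif2s3y transgene, and the second sets Zfy2 against multi-copy Zfy1. The difference between the 2 comparisons was tested for each member. For Khdc3 it was -0.10 (SE 0.333, 95% interval -0.80 to 0.61, limma adjusted p = 0.979). No member probe passed, and 17 of all probes did. The mean of both comparisons, a contrast added after the data were seen, was 0.79 for Khdc3 (SE 0.166, limma adjusted p = 0.00361), where 16.1% of all probes were called. The same mean was -0.16 for Ooep (SE 0.0629, adjusted p = 0.102) and between -0.16 and 0.17 for the other probes. Khdc3 was the one member called in this mean, which was run under no alternative. The limma adjusted p of Khdc3 was 0.149 in the first comparison with slide as a fixed block. In the second it was 0.449 with slide position as covariate.

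Zfy1_hi against XX crossed the batches and called 1 of the 8 genes, Nlrp2, against 10.4% of all probes called and 5.47% called as lower. With each array scaled to a common median in place of quantile normalization, the share of calls that were higher moved from 47.2% to 61%, and Nlrp2 was still called as lower. Nlrp2 was 2.54-fold lower, at a log2 change of -1.34 (SE 0.166, limma adjusted p = 0.000132). The size depended on the scale, at -0.86 with an offset of 50 and -0.59 on the deposited normalized values, and the call held in both. Arrays of 5 member probes lay below all XX arrays, as did those of 15.6% of all probes. Khdc3 differed by 0.09 (SE 0.252, 95% interval -0.44 to 0.62, adjusted p = 0.867).

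Zfy2 against XX also crossed the batches and called 3 of the 8 genes, where 22.4% of all probes were called, 11.1% as higher and 11.3% as lower. Khdc3 rose 1.91-fold (log2 0.93, SE 0.252, limma adjusted p = 0.0145), and its adjusted p was 0.0667 without XX replicate 1. Nlrp2 fell 2.29-fold (log2 -1.20, SE 0.166, adjusted p = 0.000159), at -0.79 with an offset of 50 and -0.53 on the deposited normalized values. Tle6 fell 1.27-fold (log2 -0.35, SE 0.119, adjusted p = 0.0449), and its adjusted p rose to between 0.0592 and 0.154 when any 1 of the 6 arrays was left out, to 0.0585 with the replicate number as a block and to 0.117 with only these 2 groups in the fit.

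Arrays of 2 member probes lay above all XX arrays and those of 3 below, beside 19.7% and 19.3% of all probes. Genotype and batch cannot be told apart in either comparison with XX. The summed level of the 12 oocyte markers was also lower in batch 2, at 14.64 to 14.77 in Zfy1_hi and 14.61 to 14.76 in Zfy2 against 14.89 to 14.92 in XX (log2), and its part in the result was not tested. Within batch 2, Nlrp2 differed between Zfy2 and Zfy1_hi by 0.15 (SE 0.166, 95% interval -0.21 to 0.50, adjusted p = 0.723). Its batch 1 group means lay between 6.55 ± 0.07 and 6.72 ± 0.06.

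Most member probes differed little between groups. The median size of difference of the 10 probes was 0.07, 0.10, 0.08 and 0.11 in the 4 comparisons within a batch, beside 0.15, 0.14, 0.19 and 0.19 over all probes. Across batches it was 0.17 in Zfy1_hi and 0.26 in Zfy2, beside 0.23 and 0.29. All 10 member probes were detected on every array, as were 13829 of the 23951 probes tested, and these medians describe them without a test.

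The 10 probes did not move together over the arrays. After each batch mean was subtracted, 26 of their 45 pairwise correlations over 18 arrays were positive, with a median r of 0.06 and a range of -0.51 to 0.51. Khdc3 correlated at 0.51 with Nlrp5 probe 3, at -0.51 with Ooep and at -0.50 with Nlrp4f, and Nlrp5 probe 1 at -0.50 with Zbed3. Even the Nlrp5 probes correlated with each other at only 0.37, 0.24 and 0.17. The points share slides and RNA pools, and the correlations are a description.

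**Figure D3:**
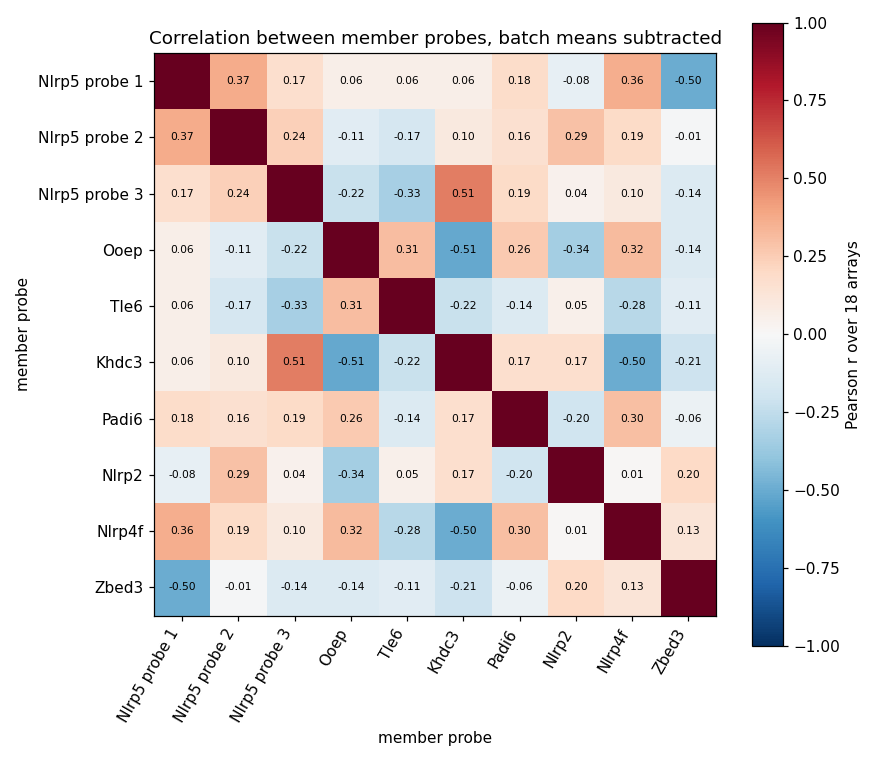
Pearson r between each pair of member probes over 18 arrays (both axes list the probes, and colour runs from -1 to 1), after the mean of each batch was subtracted. Most cells are pale, and the extreme pairs involve Khdc3, at 0.51 with Nlrp5 probe 3 and -0.51 with Ooep.

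The genes most like Khdc3 were then sought among all probes with 1 gene symbol. Taken as the highest of so many, their r cannot be compared with that between member probes. Over the same 18 arrays and 19799 probes with 1 gene symbol, the 3 most alike were Tex19.2 (r = 0.97), a mammal-specific germ cell gene, Senp2 (r = 0.96), a SUMO protease, and Zmynd8 (r = 0.95), a reader of histone marks. In batch 1 alone the nearest were D030056L22Rik (0.98), Zmynd8 (0.97) and the histone variant gene H2az1 (0.97). Tex19.2 read 8.69, 8.33 and 8.93 in XX, 10.19, 8.40 and 10.79 in Zfy2_nf and 10.69, 10.84 and 10.69 in Zfy2_Eif2s3y. It read 9.37, 9.32 and 8.71 in Zfy1_hi and 10.49, 10.55 and 10.54 in Zfy2. Replicate 2 of Zfy2_nf was low and its other 2 arrays high, as for Khdc3. Tex19.2 was selected for such likeness over these same arrays, so its split is not separate evidence.

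Tex19.2 rose by 1.52 (SE 0.363, limma adjusted p = 0.0143) in Zfy2_Eif2s3y. In Zfy2 against Zfy1_hi its log2 difference was 1.40, with an SE of 0.419 and an adjusted p of 0.0628. Senp2 was 1.26 higher (SE 0.431, adjusted p = 0.0779) and Zmynd8 0.71 higher (SE 0.217, adjusted p = 0.0519) in Zfy2_Eif2s3y, and neither passed. Nor did they in Zfy2 against Zfy1_hi, at 1.14 (SE 0.498, limma adjusted p = 0.225) and 0.50 (SE 0.25, adjusted p = 0.307). Across batches, Zmynd8 was 0.71 higher in Zfy1_hi against XX (SE 0.25, adjusted p = 0.0812), where Khdc3 differed by 0.09. These genes were selected for their likeness to Khdc3, so their changes are not separate evidence.

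**Figure D4:**
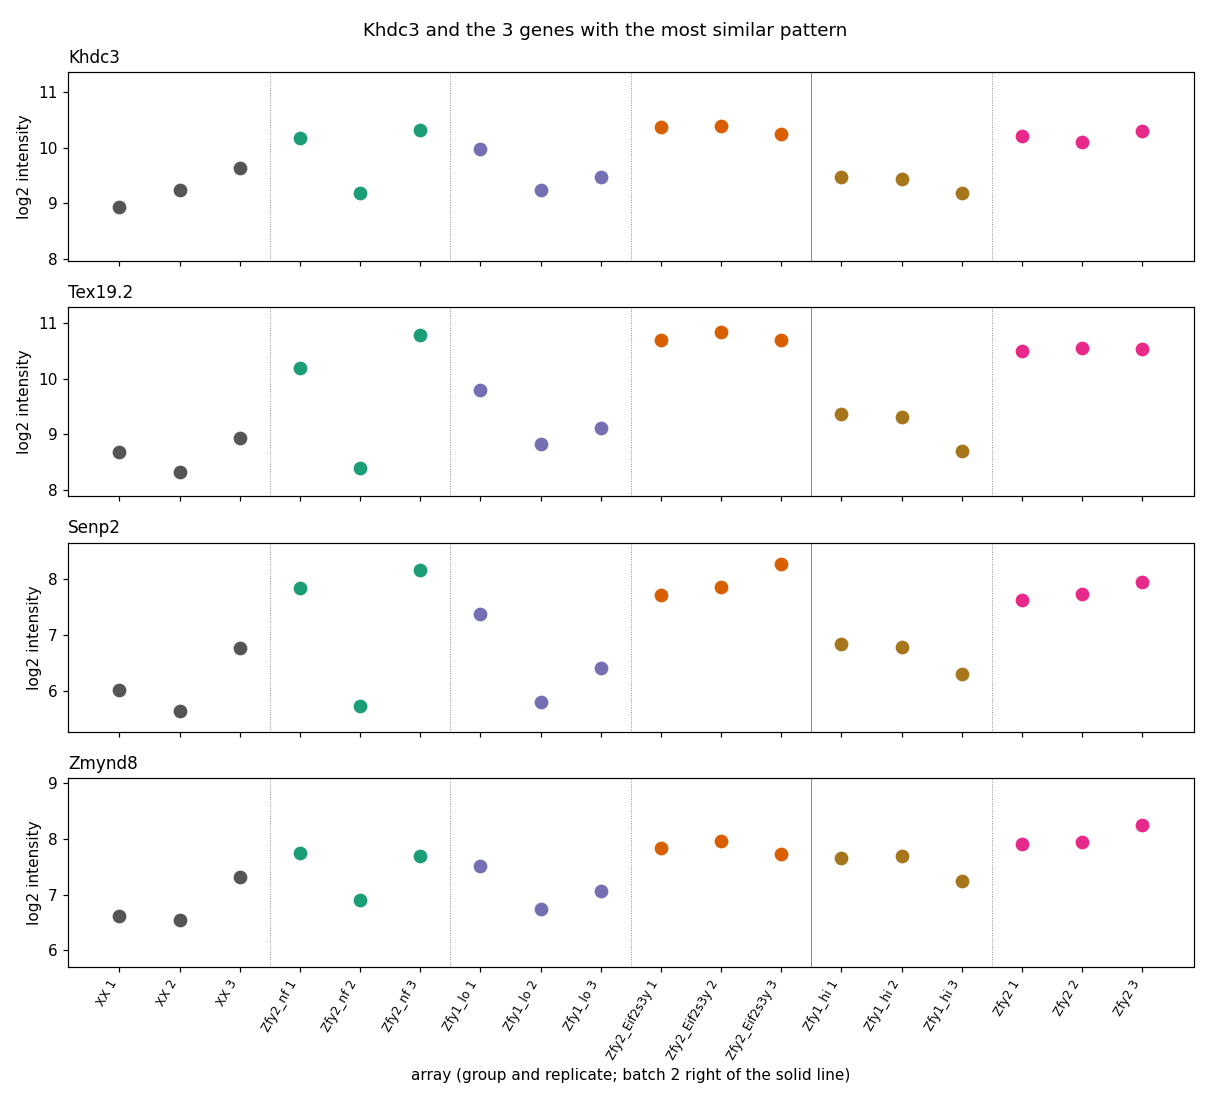
Log2 intensity (vertical axes) of Khdc3, Tex19.2, Senp2 and Zmynd8 on each of the 18 arrays (horizontal axis, by group and replicate, with batch 2 right of the solid line). In all 4 panels replicate 2 of Zfy2_nf is low while replicates 1 and 3 are high. The 3 genes beside Khdc3 were selected for their likeness to it over these same arrays.

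The other members had less close neighbours by the same rule. Ooep was nearest to the zinc finger genes Zfp560 (r = 0.89) and Zfp945 (0.88) and to Thoc5 (0.87), an mRNA export factor. Nlrp4f was nearest to Zfr (0.86), which was also its nearest in batch 1 alone (0.93), then Dync1i2 (0.83) and Pole2 (0.83). Nlrp5 probe 1 was nearest to Sult2a1 (0.85), Rnf167 (0.78) and Zfp575 (0.77), and Tle6 to Cdh3 (0.82), Tgfbr3 (0.81) and Acbd5 (0.80). Padi6 was nearest to Olfr48 (0.82), Bag5 (0.77) and Impact (0.77), Nlrp2 to Lmx1b (0.82), Mybbp1a (0.82) and Mtfr1 (0.77), and Zbed3 to Prune1 (0.81), Sft2d3 (0.80) and Nfyc (0.79). In batch 1 alone only Nlrp4f kept its nearest gene. There the nearest was Brcc3 for Ooep (0.95), Irgm1 for Nlrp5 probe 1 (0.90), Clk1 for Tle6 (0.88) and Thsd4 for Padi6 (0.85). For Nlrp2 it was Wnk2 (0.92), with Mybbp1a second (0.88), and for Zbed3 it was Bcl2l13 (0.88).

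Genes whose products act with the complex or its lattices were taken as a list of 17, of which 16 were measured. In limma 0 were called in Zfy2_nf or Zfy1_lo against XX, beside 0.0292% and 0.00418% of all probes. At an unadjusted p under 0.05, 2 and 2 passed, beside 8.78% and 7.26% of all probes. In Zfy2_Eif2s3y 1 was higher and 1 lower, beside 9.14% of all probes called. Ube2d3, a ubiquitin-conjugating enzyme, rose by 0.84 (SE 0.149, limma adjusted p = 0.00191) on 1 of its 2 probes, and Axin2, a Wnt pathway scaffold, fell by 0.50 (SE 0.0959, adjusted p = 0.00364). In Zfy2 against Zfy1_hi 2 were higher, beside 5.66% of all probes called. These were Ube2d3, by 0.86 (SE 0.172, adjusted p = 0.0071) on the same probe, and Ssh3, a phosphatase that activates cofilin, by 0.62 (SE 0.174, adjusted p = 0.0461) on 1 of 2 probes.

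Across batches 2 of the 16 fell in Zfy1_hi, beside 10.4% of all probes called, and 3 rose and 2 fell in Zfy2, beside 22.4%. Npm2, an oocyte chromatin chaperone, fell by 0.47 in Zfy1_hi (SE 0.125, adjusted p = 0.0246) and fell by 0.42 in Zfy2 (SE 0.125, adjusted p = 0.0233). Median differences of the list lay between 0.03 and 0.05, beside -0.01 to 0.01 over all probes. The Ube2d3 probe called in Zfy1_hi against XX was the other one of the gene, which fell by 0.46 (SE 0.14, adjusted p = 0.0461).

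Paralogues of the members were a second list, with 23 of 28 genes measured. Several stand beside members in the genome, among them Dppa5a next to Ooep, Nlrp4e next to Nlrp5, Tle2 next to Tle6 and Padi4 next to Padi6. In Zfy2_Eif2s3y 2 of the 23 fell and 1 rose, beside 9.14% of all probes called, and nothing particular to the list is read from this count. Khdc1c fell by 0.49 (SE 0.109, limma adjusted p = 0.00935) on 1 of 2 probes and Khdc1b fell by 0.41 (SE 0.105, adjusted p = 0.0212), both of the gene family that also holds Ooep and Khdc3. Zbed6, a transcriptional repressor, rose by 0.59 (SE 0.172, adjusted p = 0.0396). In limma 0 were called in Zfy2_nf or Zfy1_lo against XX or in Zfy2 against Zfy1_hi, beside 0.0292%, 0.00418% and 5.66% of all probes. At an unadjusted p under 0.05, 3, 2 and 4 passed, beside 8.78%, 7.26% and 18.5% of all probes.

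Across batches 2 of the 23 fell in Zfy1_hi, beside 10.4% of all probes called, and 3 fell in Zfy2, beside 22.4%. Nlrp4b fell by 0.49 (SE 0.135, limma adjusted p = 0.0298) in Zfy1_hi and fell by 0.65 (SE 0.135, adjusted p = 0.0029) in Zfy2. Dppa5a also fell in Zfy1_hi, by 0.49 (SE 0.144, adjusted p = 0.0393) on 1 of 2 probes. Khdc1b fell by 0.60 and Zbed5 fell by 0.61 in Zfy2, at adjusted p of 0.00251 and 0.0348.

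Of other maternal effect genes, 23 of 29 were measured. In limma 0 were called in Zfy2_nf or Zfy1_lo against XX, beside 0.0292% and 0.00418% of all probes. At an unadjusted p under 0.05, 3 and 1 passed, beside 8.78% and 7.26% of all probes. In Zfy2_Eif2s3y 1 was higher and 1 lower, beside 9.14% of all probes called. In Zfy2 against Zfy1_hi 2 were higher and 1 lower, beside 5.66%. Nothing particular to the list is read from these counts. Dicer1, the enzyme that makes small RNAs, fell on 1 of 2 probes in both comparisons of functional Zfy2 within a batch, at -0.64 (SE 0.129, limma adjusted p = 0.00508) and -0.77 (SE 0.149, adjusted p = 0.00582) on the log2 scale. Ube2a, another ubiquitin-conjugating enzyme, rose by 0.40 (SE 0.101, adjusted p = 0.0208) in Zfy2_Eif2s3y. In Zfy2 against Zfy1_hi 1 probe of 2 for Ago2, whose protein carries small RNAs, was 1.5 higher on the log2 scale (SE 0.366, adjusted p = 0.0237). Btg4, which triggers maternal mRNA clearance, was 0.51 higher there (SE 0.129, adjusted p = 0.0279). Its same probe was 0.87 lower in Zfy1_hi against XX, across batches (SE 0.129, limma adjusted p = 0.000567). Across batches 2 rose and 5 fell in Zfy1_hi, where 10.4% of all probes were called, and 4 rose and 4 fell in Zfy2, where 22.4% were. This list shares Npm2, Dnmt1 and Nlrp14 with the other lists.

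Oocyte identity markers gave a comparison for the members within the same cells. In Zfy2_Eif2s3y, Figla, the factor that switches on the zona genes, fell by 0.68 (SE 0.153, limma adjusted p = 0.0104), Kit fell by 0.53 (SE 0.141, adjusted p = 0.0267) on 2 of 3 probes, and Dazl rose by 0.52 (SE 0.123, adjusted p = 0.014). In Zfy2 against Zfy1_hi Kit fell by 0.75 (SE 0.188, adjusted p = 0.028), on 1 of 3 probes. The other 9 and 11 of the 12 markers were not called. Of all probes, 9.14% and 5.66% were called in these 2 comparisons. Gdf9, a growth factor gene of the oocyte, fell by 0.91 (SE 0.135, adjusted p = 0.00061) in Zfy1_hi against XX and fell by 0.83 (SE 0.135, adjusted p = 0.000522) in Zfy2 against XX, both across batches.

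Among markers of other ovarian cells, Cyp11a1, the first enzyme of steroid synthesis, fell by 1.63 (SE 0.211, limma adjusted p = 0.000134) in Zfy2_Eif2s3y and fell by 1.68 (SE 0.243, adjusted p = 0.000603) in Zfy2 against Zfy1_hi, each on 1 of 3 probes. Ptgs2 was lower in Zfy2_Eif2s3y (-0.56, SE 0.16, limma adjusted p = 0.0382), but was detected on only 10 of the 18 arrays, at a mean log2 intensity of 4.92. With it, 2 of 12 granulosa and cumulus markers were called there, both lower, and 1 in Zfy2 against Zfy1_hi. Of all probes, 9.14% and 5.66% were called in these comparisons. The median over all probes of the granulosa and cumulus list went the other way from these calls in Zfy2_Eif2s3y, at 0.33 beside -0.01 over all probes. In Zfy2 against Zfy1_hi it was 0.09 beside 0. In comparisons within a batch limma called 0 of 5 stroma and theca and 0 of 3 blood markers, with at most 1 of either at an unadjusted p under 0.05. Of all probes, 0.00418% to 9.14% were called in those comparisons, and 7.26% to 24% had an unadjusted p under 0.05. Acta2 of the stroma list and Laptm5 and Pecam1 of the blood list were detected on all 18 arrays, and Lum and Hba-a1 on 0.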

How the data were processed

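RNA of 18 oocyte pools was amplified and hybridised to Illumina bead arrays. The deposited non-normalized table holds, per the file headers, the linear bead intensity of 45281 probes and a detection p-value for each probe on each array. The deposited normalized matrix also holds intensity, and its method is not given in the sources used here. GenomeStudio is named per the submitters' processing notes. By the platform table, 34885 probes had 1 gene symbol, 18 several and 10378 none.

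In R 4.3.3 with limma 3.58.1, neqc corrected background from the detection p-values, added an offset of 16, quantile normalized all arrays and took log2. Probes with a detection p-value under 0.05 on at least 3 arrays were kept (23951). A model of 6 group means without a block (12 residual degrees of freedom) gave 6 comparisons, tested by eBayes and adjusted by Benjamini-Hochberg. It was tested on simulated data. Groups come from the labels, and slides from the array names. Pools are described as biological replicates, and precision is set by the 3 arrays of a group. Same-numbered samples did not deviate together (2 of 45 pairs over 0.1, median r -0.003), so numbers do not pair them.

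All members are named, and the 3 genes most correlated with each member. For each list, up to 4 called genes with the smallest p are named in comparisons within a batch. Across batches only some of the called genes are named. Ctcf, a maternal effect gene lower by 0.97 in Zfy1_hi and by 0.71 in Zfy2 against XX, is among those left out. Members and lists were chosen with earlier results of these data known. Alternatives covered normalization, offset, filters, blocks, samples and single arrays.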

Additional observations from a re-analysis of the deposited data

How the results depend on the processing

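No member value that passed its test changed direction under any alternative run. Of 60 values (10 probes in 6 comparisons), 37 kept their sign in all alternatives, 5 were called, and 2 of these, both Nlrp2 across batches, were called under every alternative. For Zfy2_Eif2s3y, where 1 member was called, an offset of 50 called 2, and fitting only the groups compared, slide as a fixed block, normalization within the batch, slide 2 only, and Zfy2_nf as the sole control (added after seeing the data) each called 0. Leaving out single arrays called 0 to 1. The adjusted p of Khdc3 ran from 0.0158 to 0.405 there, and was 0.0744 with dim probes kept. For Zfy2 against Zfy1_hi, where 0 were called, the deposited normalized values, an offset of 50, only the groups compared and normalization within the batch each called 1, Khdc3, whose adjusted p ran from 0.0201 to 0.449. For Zfy2 against XX, where 3 were called, the deposited normalized values called 5, and single omissions called 1 to 3. The cause of these shifts was not tested. With replicate number as a replicate block, Tle6 in Zfy2 against XX lost its call (adjusted p 0.0585) and no other member call changed.

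Over all probes, the 2188 calls of Zfy2_Eif2s3y became 1111 with slide as a fixed block, 276 on slide 2 only, 1148 against Zfy2_nf alone, 1379 with 1 probe per gene, of fewer features tested, and as few as 1173 without 1 array. The 1355 of Zfy2 against Zfy1_hi became 445 with upper or lower slide position as covariate (added after seeing the data), 883 normalized within the batch and as few as 809 without 1 array. The 2482 of Zfy1_hi against XX became 1330 with only those groups, as few as 1456 without 1 array and 1149 with 1 probe per gene. The 5366 of Zfy2 against XX became 4133 with only those groups, as few as 3837 without 1 array and 2828 with 1 probe per gene. With 1 probe per gene 12184 probes were tested. The shares called were then 11.3% in Zfy2_Eif2s3y, 9.43% in Zfy1_hi against XX and 23.2% in Zfy2 against XX, beside 9.14%, 10.4% and 22.4% in the main run. The 7 of Zfy2_nf against XX ranged from 1 to 15, and the 1 of Zfy1_lo from 0 to 7. Slide as a fixed block could not be fitted across batches or within batch 2, which is 1 slide. The probe signal over background limits Nlrp2.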
